A study of Homo sapiens with 21 samples.

Results

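The endoplasmic reticulum (ER) unfolded protein response was followed through 34 genes, taken by symbol from the 28008 genes of both count tables. By role they were 6 sensors and transcription factors, 12 chaperones and co-chaperones, 5 disulfide enzymes and 11 genes of ER-associated degradation and translocation, and all 34 symbols were present in both tables. Messenger RNA was sequenced in 21 libraries of human leukaemia lines. They form 7 groups, each of 3 libraries, over 2 sequencing batches. In batch 1 were OCI-AML3 cells labelled resistant to StAMP (genotype Res, treatment StAMP, biological replicate 1, "resistant 1" from here on), OCI-AML3 cells with DMSO as vehicle (genotype WT), K562 parental cells and OCI-AML3 parental cells (both genotype WT, treatment not applicable). Batch 2 held resistant 1 again, a second biological replicate with the same genotype and treatment labels ("resistant 2") and OCI-AML3 cells with DMSO (genotype WT). OCI-AML3 is an acute myeloid leukaemia line and K562 an erythroleukaemia line, and the series title speaks of stapled oncolytic peptides and membrane cholesterol. The labels do not spell out StAMP. The dose, the time of treatment, the change behind the genotype Res and whether a resistant replicate was a single clone were not stated in the labels. Nor do the labels say that the 3 libraries of a group came from separate cultures, and p-values here reflect library-to-library spread, which may be technical.

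The unfolded protein response couples the load of unfolded protein in the ER lumen to transcription. ERN1 (the kinase and RNase IRE1), EIF2AK3 (the kinase PERK) and ATF6 (a membrane-tethered transcription factor released by cleavage in the Golgi) are its sensors. IRE1 splices XBP1 mRNA into the form that encodes the active transcription factor, PERK slows translation and favours ATF4, and their targets include lumenal chaperones, disulfide isomerases and the machinery that returns misfolded proteins to the cytosol for degradation. Gene-level counts do not separate spliced from unspliced XBP1 mRNA.

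Depth was 14066821 to 21091646 counts per library in batch 1 and 30719771 to 51262668 in batch 2, and the 34 genes held 0.713 to 1.17% of them. Levels below are counts-per-million values (CPM), that is, counts relative to library size after TMM scaling over all 21 libraries. The libraries labelled resistant stood with K562 rather than with the line on their label. Over 10772 genes averaging over 5 CPM, log2 profiles of resistant 1 in batch 1 correlated at 0.978 to 0.98 with K562 and at 0.511 to 0.514 with vehicle. The batch 2 libraries labelled resistant correlated at 0.9 to 0.94 with K562 and at 0.547 to 0.571 with vehicle of their batch. The summed level of 24 erythroid markers was 7003 to 7169 CPM in resistant 1 of batch 1, 6793 to 7070 CPM in K562 and 192 to 197 CPM in vehicle of batch 1. In batch 2 that sum was 3290 to 3765 CPM in resistant 1, 2205 to 3330 CPM in resistant 2 and 159 to 201 CPM in vehicle. The summed level of 20 monocyte and myeloid markers was 154 to 155 CPM in resistant 1 of batch 1, against 3439 to 3502 CPM in vehicle. It was 226 to 369 CPM in the resistant libraries of batch 2, against 3888 to 4013 CPM in vehicle. Among the erythroid markers, 11 had 0 counts in vehicle of batch 1 (GYPB, HBA1, HBA2, HBB, HBG1, HBZ, ALAS2, RHAG, HEMGN, EPB42 and AHSP), and none had 0 counts in the libraries labelled resistant. Every comparison of resistant with vehicle libraries below carries that difference in marker genes, and its part in each result was not tested. Without the libraries labelled resistant, the comparisons left are K562 against OCI-AML3 parental and vehicle against OCI-AML3 parental. Markers of plasma and B cells, in which this response is strongly used, summed to 1.4 to 11.04 CPM over the 11 of 14 genes found in the tables. In bulk RNA, fewer cells of a type and less RNA per cell cannot be told apart.

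Levels per kilobase of the canonical transcript were dominated by lumenal folding factors. In vehicle libraries of batch 1, P4HB (the major protein disulfide isomerase) had 581 CPM per kb, CALR (calreticulin, a lectin chaperone) 406, HSP90B1 (GRP94, the ER HSP90) 319 and CANX (calnexin, the membrane-bound lectin chaperone) 227. P4HB stood clear of CALR over the 3 libraries (558 to 595 against 398 to 413 CPM per kb), and CALR of HSP90B1 (314 to 321). The order differed in the libraries labelled resistant. In resistant 1 of batch 1, CALR led with 382 CPM per kb, and P4HB stood below HSP90B1 and CANX with 163. In resistant 1 of batch 2, CANX led with 615 CPM per kb and in resistant 2 with 446, while HSPA5 (BiP, the ER HSP70 and standard readout of the response) had 288 in resistant 1 and 363 in resistant 2. Of the sensors, ERN1 and EIF2AK3 lay at the low end in every group, at 2.45 and 3.44 CPM per kb in vehicle of batch 1.

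At the bottom of the order, 4 genes averaged under 6 CPM in all 7 groups. TXNDC5, a thioredoxin-domain isomerase, ranged from 0.0356 to 1.82 CPM, and the read-through gene that contains it held 1 count in all libraries together. EDEM2, a mannosidase that starts glycoprotein degradation, had 57 counts over the 21 libraries and passed the low-count filter in no comparison. The read-through gene MMP24-AS1-EDEM2, which contains it in the annotation, had 392 counts, so reads of EDEM2 may have been split or dropped in counting. WFS1 (wolframin, an ER membrane protein that restrains ATF6) averaged 3.65 CPM in vehicle of batch 1 and 0.0536 CPM in resistant 1. DERL3, a derlin of the degradation channel, reached at most 5.04 CPM on average, in K562. Of its exonic bases, 77% lie opposite exons of SMARCB1, a gene with up to 108 CPM. The strand setting of the counting is unknown here, so DERL3 is uncertain.

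**Figure D1:**
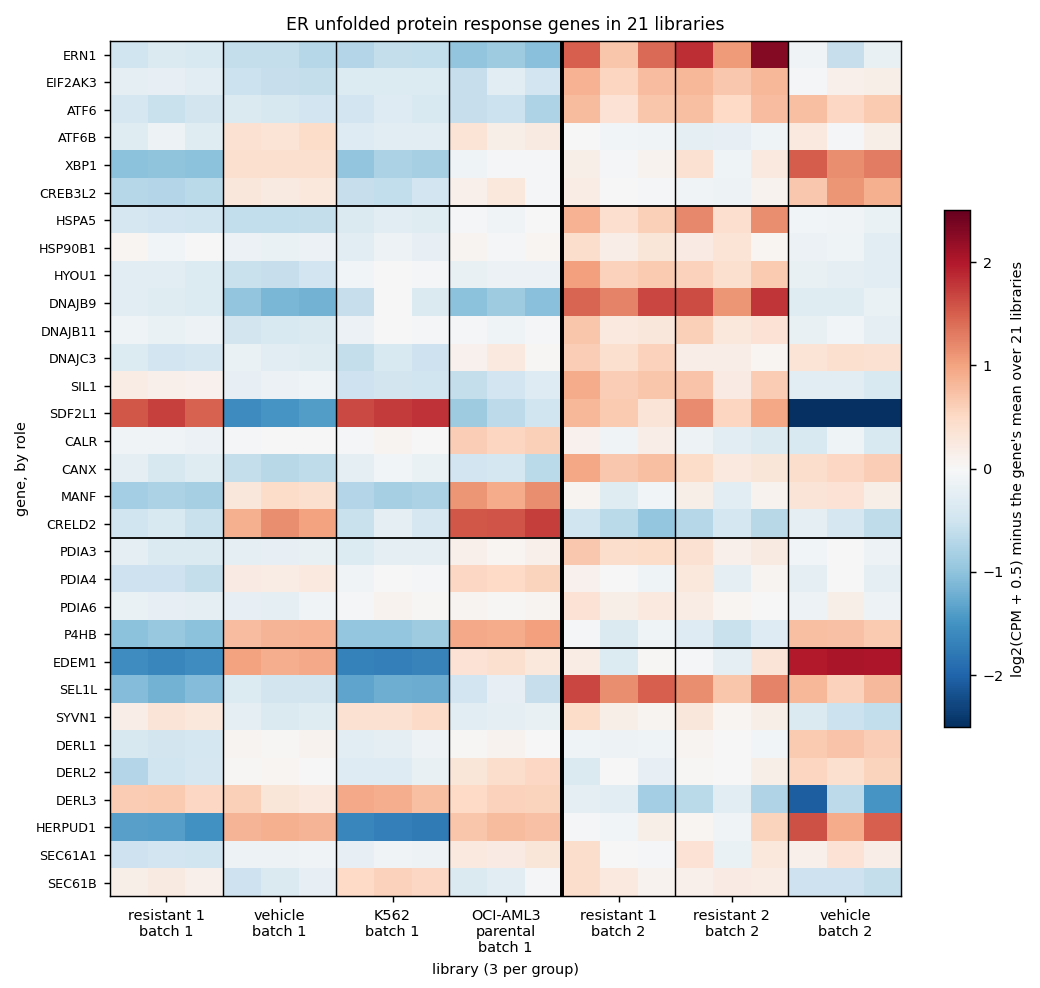
Level of 31 genes of the response in each of 21 libraries (columns, 3 per group, the thick line separating the batches), as log2(CPM + 0.5) minus the gene's mean over the 21 libraries. EDEM1, HERPUD1, P4HB and XBP1 are lower in the libraries labelled resistant than in vehicle of either batch, SDF2L1 is higher, and ERN1, DNAJB9 and HSPA5 are highest in the batch 2 libraries labelled resistant.

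Promoters of the response carry short sequence elements that its transcription factors bind, and these were looked up in RefSeq windows (GRCh38.p14) of 250 bases before to 50 bases after the transcription start. A window was found for 31 of the 34 genes. The ER stress response element (ERSE), searched on both strands as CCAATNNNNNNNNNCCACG, was present in 6 of 31 (19.4%), namely XBP1, HSPA5, HSP90B1, CALR, CANX and CRELD2, and in 22 of 27305 windows of all genes (0.0806%). The shorter ERSE-II, searched on both strands as ATTGG, any 1 base and CCACG, was present in HYOU1, SDF2L1 and HERPUD1 (9.68% of 31) and in 15 windows of all genes (0.0549%). The XBP1-type element TGACGTGG was present in HYOU1 alone (3.23%), where it overlaps an ERSE-II, and in 217 windows of all genes (0.795%). The windows of all genes include these 31, and no test was run on the shares. A match describes letters and not a site in use, and the windows lacking these letters may hold other elements. The 250 upstream bases are printed for 4 genes whose levels carry the results below, a pair with ERSE and a pair with ERSE-II, and the capitals mark the fixed letters of the element.
HSPA5 (chr9:125241344-125241593, minus strand): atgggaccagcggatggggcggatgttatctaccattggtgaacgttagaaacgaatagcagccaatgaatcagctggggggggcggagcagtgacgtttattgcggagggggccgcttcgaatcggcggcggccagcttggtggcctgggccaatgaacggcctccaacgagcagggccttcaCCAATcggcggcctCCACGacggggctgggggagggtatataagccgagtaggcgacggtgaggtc
XBP1 (chr22:28800570-28800819, minus strand): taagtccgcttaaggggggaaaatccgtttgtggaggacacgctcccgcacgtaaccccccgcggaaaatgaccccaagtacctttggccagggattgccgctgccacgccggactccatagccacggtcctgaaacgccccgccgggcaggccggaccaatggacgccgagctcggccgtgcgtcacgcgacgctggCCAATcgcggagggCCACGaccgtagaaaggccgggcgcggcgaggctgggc
SDF2L1 (chr22:21642052-21642301, plus strand): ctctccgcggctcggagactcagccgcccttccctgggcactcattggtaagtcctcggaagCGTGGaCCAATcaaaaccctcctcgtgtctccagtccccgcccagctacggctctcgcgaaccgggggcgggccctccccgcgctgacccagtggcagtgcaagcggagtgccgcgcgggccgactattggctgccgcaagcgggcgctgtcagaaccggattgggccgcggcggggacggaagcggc
HERPUD1 (chr16:56931892-56932141, plus strand): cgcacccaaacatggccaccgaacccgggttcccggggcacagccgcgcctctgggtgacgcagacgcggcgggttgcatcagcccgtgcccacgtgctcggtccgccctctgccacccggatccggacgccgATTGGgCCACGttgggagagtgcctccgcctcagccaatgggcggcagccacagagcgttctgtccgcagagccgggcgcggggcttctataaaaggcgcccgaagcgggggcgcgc

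Within each printed pair, levels in the libraries labelled resistant moved in opposite directions. HSPA5 rose and XBP1 fell in resistant 1 against vehicle in both batches, and both windows hold an ERSE. Likewise SDF2L1 rose and HERPUD1 fell, and both windows hold an ERSE-II. The values follow by comparison.

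In batch 1, the libraries labelled resistant 1 differed from vehicle in 28 of 33 genes tested (12 higher, 16 lower, beside 44% and 42.1% of all genes; edgeR quasi-likelihood F test, Benjamini-Hochberg adjusted p under 0.05). Over all 14505 genes tested, 86% were called, so the share among these genes (84.8%) lay near the background. Their median log2 fold change was -0.09, beside 0.02 over all genes, and 8 were called with a change of at least 1 on the log2 scale (of 33, beside 44.5% of all genes). Chaperones mostly rose (8 of 12, with 3 lower), whereas 7 of 10 genes of degradation and translocation and 3 of 5 disulfide enzymes fell.

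Of the sensors, ERN1 (chr17:64039080-64130819, hg38) had 21.3, 23.2 and 23.2 CPM in resistant 1 of batch 1 and 19.9, 19.9 and 18.2 CPM in vehicle (log2 fold change 0.25, SE 0.08, adjusted p = 0.00498). EIF2AK3 (chr2:88556741-88691518) had 19.8, 20.1 and 19.4 CPM in resistant 1 and 15.97, 15.5 and 15.2 CPM in vehicle (log2 fold change 0.37, SE 0.09, adjusted p = 0.000258). All 3 resistant 1 libraries lay above all 3 vehicle libraries for both kinases, by 1.19- and 1.297-fold. ATF6 (chr1:161766298-161977574) had 116, 106 and 113 CPM in resistant 1 and 122, 118 and 113 CPM in vehicle, and the groups overlapped (log2 fold change -0.04, SE 0.06, adjusted p = 0.534). Its paralogue ATF6B (chr6:32115264-32128253), a weaker activator, had 82.97, 93.2 and 82.8 CPM in resistant 1 and 132, 129 and 140.3 CPM in vehicle (log2 fold change -0.60, SE 0.06, adjusted p = 2.84e-10).

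The transcription factor XBP1 (chr22:28794555-28800597) had 75.8, 76.6 and 76.2 CPM in resistant 1 and 206, 204 and 204 CPM in vehicle (log2 fold change -1.4, SE 0.05, adjusted p = 4.45e-20). CREB3L2 (chr7:137874979-138002086), an ER-anchored factor of the CREB3 family that drives secretory genes, had 102, 102 and 106 CPM in resistant 1 and 205, 197 and 203 CPM in vehicle (log2 fold change -0.93, SE 0.06, adjusted p = 5.16e-14). Every resistant 1 library was below every vehicle library for both factors. XBP1 mRNA was 2.63-fold lower in resistant 1, while the mRNA of the kinase that splices it was the 1.19-fold higher one given above.

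Among the chaperones, the greatest rise was that of SDF2L1 (chr22:21642302-21644299), a lumenal partner of HSP40-type co-chaperones. It had 116, 129 and 109.6 CPM in resistant 1 and 12.8, 13.8 and 14.5 CPM in vehicle (log2 fold change 3.14, SE 0.09, adjusted p = 1.72e-21), an 8.83-fold difference. DNAJB9 (chr7:108569867-108574850), the co-chaperone ERdj4 and a classical target of spliced XBP1, had 18.1, 17.8 and 17.4 CPM in resistant 1 and 10.9, 9.68 and 9.46 CPM in vehicle (log2 fold change 0.86, SE 0.09, adjusted p = 2.1e-09). Neither gene's groups overlapped. HSPA5 (chr9:125234853-125241382) had 543, 522 and 512 CPM in resistant 1 and 473, 473 and 478 CPM in vehicle (log2 fold change 0.18, SE 0.04, adjusted p = 0.000324). HSP90B1 (chr12:103930107-103953931) had 1023, 945 and 983 CPM in resistant 1 and 892, 875 and 894 CPM in vehicle (log2 fold change 0.18, SE 0.04, adjusted p = 0.00029). These major chaperones rose by little, by 1.13- and 1.13-fold, with no overlap of the groups. HYOU1 (the large HSP70 GRP170, log2 fold change 0.27), DNAJB11 (the co-chaperone ERdj3, 0.30), SIL1 (a nucleotide exchange factor of BiP, 0.33) and CANX (0.36) also rose.

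The chaperones that fell were MANF (a secreted lumenal factor that stabilises BiP with its clients), CRELD2 (a lumenal factor with disulfide isomerase activity) and, by 0.13 on the log2 scale, DNAJC3 (the co-chaperone p58IPK). MANF averaged 21.2 ± 0.472 CPM in resistant 1 and 49.8 ± 3.29 CPM in vehicle (SD, n = 3 each), with log2 fold change -1.2, SE 0.07, adjusted p = 9.58e-15. CRELD2 averaged 11.1 ± 0.7298 CPM in resistant 1 and 32.1 ± 3.06 CPM in vehicle (SD, n = 3 each), with log2 fold change -1.5, SE 0.09, adjusted p = 5.52e-15. The call of DNAJC3 was lost without resistant 1 replicate 2 or 3 or vehicle replicate 1 (adjusted p = 0.0872 to 0.169). CALR did not pass the test (log2 fold change -0.06, SE 0.04, adjusted p = 0.18).

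Of the disulfide enzymes, P4HB (chr17:81843159-81860856) had 391, 411 and 387 CPM in resistant 1 and 1361, 1435 and 1450.5 CPM in vehicle (log2 fold change -1.81, SE 0.04, adjusted p = 7.85e-24). PDIA4, the isomerase ERp72, averaged 197 ± 6.62 CPM in resistant 1 and 333 ± 7.45 CPM in vehicle (SD, n = 3 each), a log2 fold change of -0.73. PDIA3 (ERp57, the partner of calnexin and calreticulin) and PDIA6 (P5) were not called, at -0.09 and 0.00. TXNDC5 was called lower (-0.56, adjusted p = 0.0355) on 1.09 CPM in resistant 1 against 1.63 CPM in vehicle, and lost the call under DESeq2, with no low-count filter, with the replicate block, and without resistant 1 replicate 1 or 3 or vehicle replicate 2 (adjusted p = 0.0536 to 0.144).

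The degradation genes gave the greatest falls among members above 5 CPM. EDEM1 (chr3:5187646-5219958), which routes misfolded glycoproteins to degradation and is an XBP1 target, had 59.2, 55.9 and 59.02 CPM in resistant 1 and 351, 329 and 336 CPM in vehicle (log2 fold change -2.51, SE 0.05, adjusted p = 4.71e-25). HERPUD1 (chr16:56932142-56944864), a membrane scaffold of the HRD1 ligase complex, had 34.1, 33.7 and 30.5 CPM in resistant 1 and 158, 162 and 159 CPM in vehicle (log2 fold change -2.25, SE 0.06, adjusted p = 2.86e-23). Their levels in resistant 1 were 5.71- and 4.76-fold below vehicle. SYVN1 (chr11:65121780-65134532), the HRD1 ubiquitin ligase itself, had 42.01, 46.3 and 44.6 CPM in resistant 1 and 31.8, 28.8 and 30.1 CPM in vehicle (log2 fold change 0.58, SE 0.07, adjusted p = 6.96e-09). SEC61B (chr9:99222064-99230615), the beta subunit of the translocon, had 56.96, 60.1 and 56.3 CPM in resistant 1 and 35.99, 40.03 and 44.8 CPM in vehicle (log2 fold change 0.56, SE 0.08, adjusted p = 4.3e-07). So the ligase rose while its adaptor SEL1L (-0.67), the derlins DERL1 (-0.46) and DERL2 (-0.57) and the translocon channel SEC61A1 (-0.35) fell. WFS1 had 3 counts in all in resistant 1 and 207 in vehicle, a ratio of 0.0145 (95% exact interval 0.00296 to 0.0429, counting error only).

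**Figure D2:**
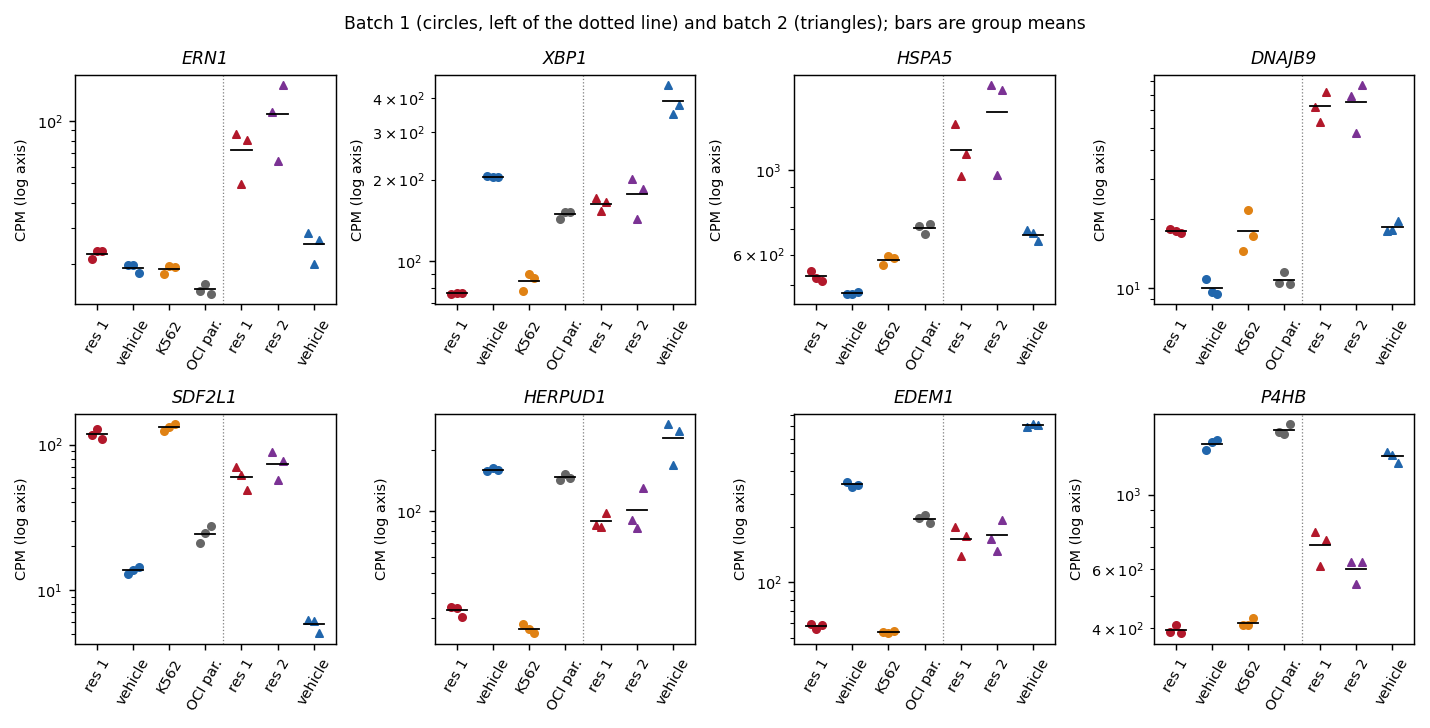
CPM (log axis) of 8 genes in each library, in batch 1 (circles) and batch 2 (triangles), with group means as bars. SDF2L1 lies above vehicle and XBP1, HERPUD1, EDEM1 and P4HB lie below vehicle in the libraries labelled resistant of both batches, while ERN1, HSPA5 and DNAJB9 stand further above vehicle in batch 2 than in batch 1.

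In batch 2, resistant 1 was called different from vehicle in 24 of 33 genes (15 higher, 9 lower), where 75.7% of 15218 genes tested were called (39.9% higher, 35.8% lower). A change of at least 1 on the log2 scale was called in 9 of them, beside 47.9% of all genes. The median log2 fold change was 0.23, beside 0.07 over all genes. Chaperones again mostly rose (8 of 12, with 1 lower), and the disulfide enzymes gave 1 higher (PDIA3, log2 fold change 0.54) and 1 lower of 5. Degradation and translocation genes split into 4 higher and 5 lower of 10.

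ERN1 had 86.4, 49.3 and 81.05 CPM in resistant 1 of batch 2 and 28.5, 20.2 and 26.5 CPM in vehicle (log2 fold change 1.48, SE 0.29, adjusted p = 0.000779). EIF2AK3 had 43.2, 33.98 and 40.4 CPM in resistant 1 and 22.7, 25.5 and 25.8 CPM in vehicle (log2 fold change 0.62, SE 0.12, adjusted p = 0.000367). Both sensor kinases were above vehicle in 3 of 3 libraries. ATF6 had 271, 201 and 253 CPM in resistant 1 and 264, 225 and 246 CPM in vehicle, again with overlap (log2 fold change -0.07, SE 0.13, adjusted p = 0.644). ATF6B had 102, 97.6 and 96.4 CPM in resistant 1 and 121, 99.6 and 113 CPM in vehicle (log2 fold change -0.21, SE 0.10, adjusted p = 0.0685), so neither ATF6 gene passed the test.

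XBP1 had 171, 153 and 165 CPM in resistant 1 of batch 2 and 446, 348 and 376 CPM in vehicle (log2 fold change -1.31, SE 0.13, adjusted p = 5.02e-07). CREB3L2 had 192, 171 and 166 CPM in resistant 1 and 271, 363 and 313 CPM in vehicle (log2 fold change -0.89, SE 0.12, adjusted p = 1.1e-05). As in batch 1, both factors fell with no overlap of the groups.

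SDF2L1 had 69.9, 61.3 and 48.9 CPM in resistant 1 of batch 2 and 6.203, 6.13 and 5.04 CPM in vehicle (log2 fold change 3.32, SE 0.19, adjusted p = 5.19e-10). DNAJB9 had 61.7, 52.97 and 71.7 CPM in resistant 1 and 17.8, 17.9 and 19.7 CPM in vehicle (log2 fold change 1.71, SE 0.17, adjusted p = 3.24e-07). HSPA5 had 1320.05, 967 and 1104 CPM in resistant 1 and 694, 684 and 649 CPM in vehicle (log2 fold change 0.70, SE 0.18, adjusted p = 0.00249). For these 3 chaperones, replicate 2 was the lowest or the middle resistant 1 library and still exceeded every vehicle library. HSP90B1 had 1342, 1106 and 1209.8 CPM in resistant 1 and 892, 912 and 826 CPM in vehicle (log2 fold change 0.43, SE 0.12, adjusted p = 0.00375). SIL1 (1.03), HYOU1 (0.95), DNAJB11 (0.54) and CALR (0.30) rose on the log2 scale too, and CALR lost its call without resistant 1 or vehicle replicate 1 or 3 (adjusted p = 0.0789 to 0.108). MANF fell (-0.43), while CRELD2 (-0.33, adjusted p = 0.0988) did not pass the test.

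EDEM1 had 199, 138 and 177 CPM in resistant 1 of batch 2 and 689, 717 and 713 CPM in vehicle (log2 fold change -2.09, SE 0.15, adjusted p = 1.05e-08). HERPUD1 had 85.8, 83.9 and 97.7 CPM in resistant 1 and 266, 168 and 247 CPM in vehicle (log2 fold change -1.39, SE 0.18, adjusted p = 8.09e-06). Both fell without overlap, as did P4HB (-0.92), DERL1 (-0.82) and DERL2 (-0.73). SEL1L had 483, 340.2 and 426 CPM in resistant 1 and 268, 225 and 267 CPM in vehicle (log2 fold change 0.67, SE 0.15, adjusted p = 0.00108), higher in 3 of 3 libraries. DERL3 had 2.09, 2.01 and 1.18 CPM in resistant 1 and 0.231, 1.43 and 0.593 CPM in vehicle (log2 fold change 1.21, SE 0.49, adjusted p = 0.0361), with overlap of the groups, and the call was lost without resistant 1 replicate 1 or 2 or vehicle replicate 1 or 3 (adjusted p = 0.0864 to 0.119). SYVN1 (0.71) and SEC61B (0.77) were higher and SEC61A1 (-0.11) was not called. WFS1 had 0.567, 0.272 and 0.463 CPM in resistant 1 and 1.41, 1.37 and 1.71 CPM in vehicle (log2 fold change -1.81, SE 0.42, adjusted p = 0.00122), again below every vehicle library.

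Resistant 2, compared with the same vehicle libraries, was called different in 22 of 33 genes (11 higher, 11 lower) where 76.1% of all genes were called (40.2% higher, 35.9% lower). In 10 of them the change was at least 1 on the log2 scale, beside 48.2% of all genes. Its median log2 fold change was -0.02, beside 0.07 over all genes. ERN1 had 110.2, 63.6 and 149.7 CPM in resistant 2 (log2 fold change 2.04, SE 0.30, adjusted p = 7.27e-05), the highest 3-library mean of the 7 groups. EIF2AK3 had 42.1, 37.4 and 42.1 CPM in resistant 2 (log2 fold change 0.66, SE 0.12, adjusted p = 0.000223). Both kinases lay above every vehicle library, as they did in resistant 1. ATF6, with 265, 221 and 269 CPM in resistant 2, overlapped vehicle (log2 fold change -0.02, adjusted p = 0.877). ATF6B had 85.8, 88.6 and 94.5 CPM in resistant 2, below all vehicle libraries (log2 fold change -0.37, SE 0.10, adjusted p = 0.00398). So 1 of the ATF6 genes passed the test here. For XBP1, the resistant 2 libraries had 201, 144 and 185 CPM (log2 fold change -1.2, SE 0.13, adjusted p = 1.16e-06). For CREB3L2 they had 159, 154 and 179.5 CPM (log2 fold change -1.0, SE 0.12, adjusted p = 3.06e-06). The sensors thus split as in resistant 1, the kinases above and the factors XBP1 and CREB3L2 below vehicle.

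HSPA5 had 1673, 971 and 1623 CPM in resistant 2 (log2 fold change 1.01, SE 0.18, adjusted p = 0.000117), replicate 2 lying well below the other 2 libraries. SDF2L1 had 88.7, 57.1 and 76.6 CPM (log2 fold change 3.61, SE 0.19, adjusted p = 2.15e-10), a 12.2-fold difference. DNAJB9 had 69.2, 47.7 and 77.1 CPM (log2 fold change 1.75, SE 0.17, adjusted p = 2.47e-07). None of the 3 overlapped vehicle. HSP90B1 had 1134, 1255 and 1016 CPM in resistant 2 (log2 fold change 0.31, SE 0.12, adjusted p = 0.0244), and lost its call without resistant 2 replicate 1 or 2 or vehicle replicate 3. Rises were also called for HYOU1, DNAJB11, SIL1, SYVN1 and SEC61B. Among the degradation genes, EDEM1 had 172, 149 and 217 CPM in resistant 2 (log2 fold change -2.04, SE 0.15, adjusted p = 1.32e-08). HERPUD1 had 90.7, 82.4 and 130.3 CPM in resistant 2 (log2 fold change -1.23, SE 0.18, adjusted p = 2.61e-05). WFS1 had 0.325, 0.0748 and 0.214 CPM (log2 fold change -2.9, SE 0.45, adjusted p = 3.79e-05). Each of the 3 fell below every vehicle library, and falls were also called for P4HB (-1.17), DERL1 (-0.73), DERL2 (-0.51), DNAJC3 (-0.30) and MANF (-0.35). DNAJC3 lost its call without resistant 2 replicate 3 (adjusted p = 0.0524), and MANF without resistant 2 replicate 2 or vehicle replicate 1 or 2 (adjusted p = 0.0864 to 0.12).

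**Figure D3:**
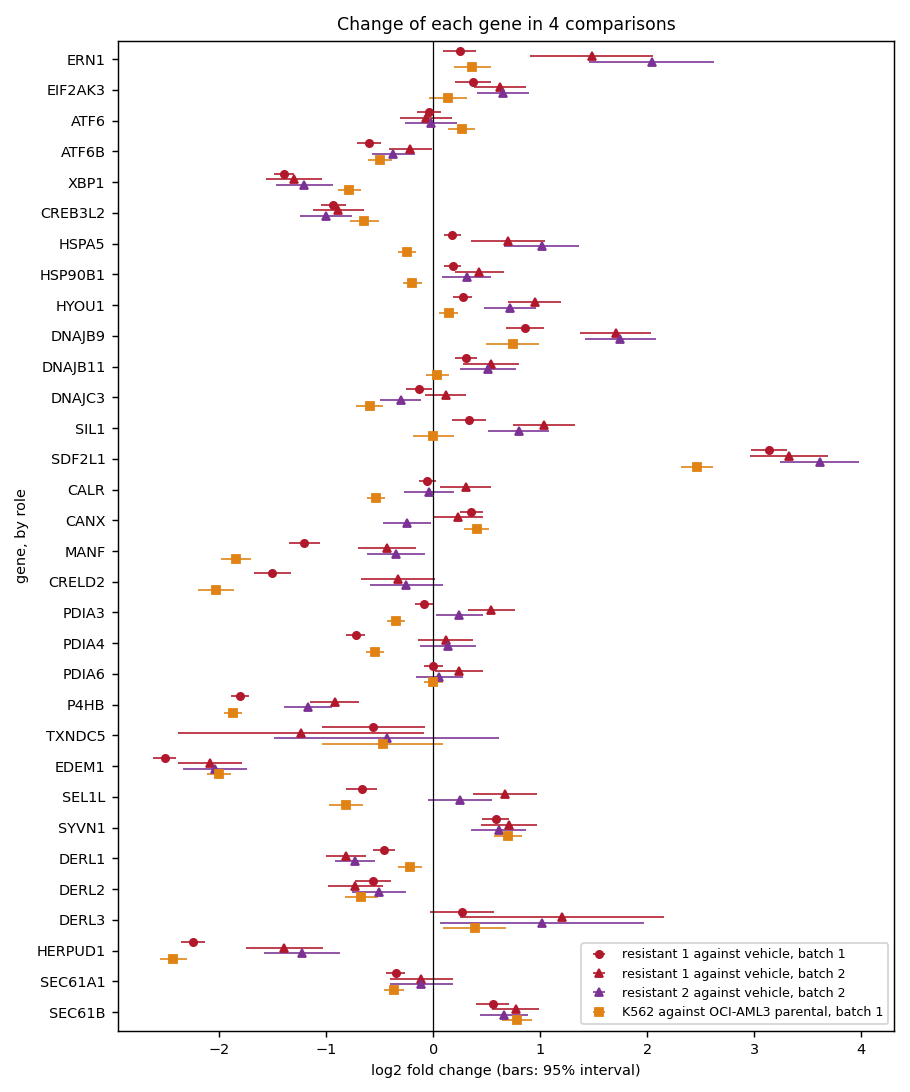
Log2 fold change of 32 genes (all but EDEM2 and WFS1) in resistant 1 against vehicle in batch 1 (circles) and batch 2 (red triangles), resistant 2 against vehicle in batch 2 (purple triangles) and K562 against OCI-AML3 parental in batch 1 (squares), with bars of the 95% interval (normal approximation). XBP1, CREB3L2, P4HB, EDEM1 and HERPUD1 lie left of 0 and SDF2L1 and DNAJB9 right of 0 in all 4 comparisons, and SEL1L changes sides between the batches of resistant 1.

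Set directly against each other in batch 2, resistant 2 and resistant 1 differed in 2 of 33 genes (0 higher, 2 lower), where 24.4% of all genes were called (12.4% higher, 11.9% lower). Neither changed by 1 or more on the log2 scale, as 9.3% of all genes did. CANX had 2377, 2065 and 2137 CPM in resistant 2 and 3381, 2749.5 and 2939 CPM in resistant 1 (log2 fold change -0.48, SE 0.12, adjusted p = 0.00847). DNAJC3 had 101, 101 and 92.005 CPM in resistant 2 and 137, 119 and 133 CPM in resistant 1 (log2 fold change -0.42, SE 0.10, adjusted p = 0.00737). Neither gene's groups overlapped. At an unadjusted p under 0.05 there were 7 genes, and 28 of the 34 genes overlapped between the groups. The matching shares over all genes are not given here, so neither count is read as a trait of these genes. Same-numbered libraries of these groups deviated together, though only 2 of 3 matched their own number best. The labels state no pairing. With the replicate number as a block, the number called over all genes rose from 3706 to 4543. Of the 33 genes, 6 were then called (1 higher, 5 lower). ERN1 was the one higher (0.56 without the block, adjusted p = 0.182, and 0.0075 with it). The 95% interval of the difference ran from 0.00 to 1.12 for ERN1, from -0.03 to 0.66 for HSPA5 and from -0.16 to 0.36 for XBP1 on the log2 scale. Replicate 2 had the lowest sum of the 34 genes in both groups. They summed to 9110 CPM in replicate 2 of resistant 2 and to 10952 and 10411 CPM in replicates 1 and 3. With that library left out of resistant 2, or the same number out of resistant 1, 5 genes were called in each case. Over all genes these refits called 4814 and 3800. In resistant 1 the sums were 10209 CPM in replicate 2 and 12655 and 11190 CPM in replicates 1 and 3. An alternative chosen after seeing the data left out replicate 2 in every group of batch 2. It called 11 of these genes (4 higher, 7 lower) and 5630 over all genes, so the number called rose over all genes too. HSPA5 (log2 fold change 0.43, adjusted p = 0.00373) and SDF2L1 (0.46, adjusted p = 0.0371) were among those higher in resistant 2.

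The difference between the batches was itself tested for resistant 1, as the log2 fold change against vehicle in batch 2 minus that in batch 1. It was called in 17 of 33 genes, 16 of them with a greater log2 fold change in batch 2, where 33.2% of 15209 genes were called (15% greater, 18.2% smaller), and in 4 it was at least 1 in size, beside 10.6% of all genes. The median difference was 0.34, beside -0.02 over all genes. The fit gave both batches 1 shared estimate of the spread per gene, although replicate libraries spread more in batch 2 than in batch 1. For SEL1L, ERN1, DNAJB9 and HSPA5 the SE of the difference (0.14, 0.24, 0.16 and 0.12) was below that of the batch 2 change alone. Adjusted p-values of the difference may therefore be too small, and the calls too many. SEL1L gave the clearest case, since its direction turned: 69.7 ± 3.12 CPM in resistant 1 and 113 ± 4.91 CPM in vehicle of batch 1, 416 ± 71.7 CPM in resistant 1 and 253 ± 24.4 CPM in vehicle of batch 2 (SD, n = 3 each). Its difference between batches was 1.32 (SE 0.14, adjusted p = 3.04e-06). For ERN1 the difference was 1.21 (adjusted p = 0.00109), for DNAJB9 0.83 (adjusted p = 0.000592) and for HSPA5 0.50 (adjusted p = 0.00488), each a greater rise in batch 2. For CRELD2 (1.16), P4HB (0.86), HERPUD1 (0.84) and MANF (0.75) it was a smaller fall in batch 2, which for CRELD2 was not called there. PDIA4 (0.82) fell in batch 1 and in batch 2 had a log2 fold change of 0.12 (adjusted p = 0.439). SIL1 (0.69) and HYOU1 (0.65) rose further in batch 2, and PDIA3 (0.62), CALR (0.34), ATF6B (0.37), EDEM1 (0.41) and WFS1 (4.15) also had a greater log2 fold change there. CALR kept its call in none of the refits without 1 library, except that without vehicle replicate 2 of batch 2 or resistant 1 replicate 2 of batch 2 (adjusted p = 0.0635 to 0.111 in the others). EDEM1 lost its call without resistant 1 replicate 1 or 3 or vehicle replicate 1 of batch 2, any resistant 1 replicate of batch 1, or vehicle replicate 1 or 3 of batch 1 (adjusted p = 0.0513 to 0.0762). ATF6B lost its call without resistant 1 replicate 1 or 3 or vehicle replicate 3 of batch 1 (adjusted p = 0.0533 to 0.0596). DERL1 was the one gene with a lower log2 fold change in batch 2 (-0.38, adjusted p = 0.00354). SDF2L1 (0.16, adjusted p = 0.517) and XBP1 (0.07, adjusted p = 0.708) did not pass this test.

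Both sides of the ratio moved between batches, and the labels give the batches only as sequencing batches. From batch 1 to batch 2, the median shift of the 34 genes was 0.68 on the log2 scale in resistant 1, with 5 genes below 0, and 0.19 in vehicle, with 15 below 0. Over all 10772 genes the medians were 0.10 in resistant 1 and 0.09 in vehicle, with 42.4% and 42.8% of genes below 0. EDEM1, HERPUD1 and XBP1 had higher levels in vehicle of batch 2 than in vehicle of batch 1, at 706 ± 14.8 against 338 ± 11.3 CPM, 227 ± 51.99 against 159.6 ± 2.21 CPM and 390.1 ± 50.5 against 205 ± 1.198 CPM (SD, n = 3 each). CRELD2 went the other way, at 11.5 ± 1.66 against 32.1 ± 3.06 CPM. Batch and cell culture cannot be told apart here, so these shifts carry no test.

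In K562 against OCI-AML3 parental cells, a comparison of the cell lines alone, 28 of 33 genes were called (9 higher, 19 lower), where 85.1% of 13883 genes were called (42.6% higher, 42.5% lower). A change of at least 1 on the log2 scale was called in 7, beside 44.1% of all genes. The median log2 fold change was -0.35, beside 0.00 over all genes. SDF2L1 had 123, 133 and 138 CPM in K562 and 20.9, 24.6 and 27.7 CPM in OCI-AML3 parental (log2 fold change 2.47, SE 0.08, adjusted p = 3.2e-16). SEC61B had 73.4, 77.3 and 74.4 CPM in K562 and 40.2, 43.2 and 50.9 CPM in parental (log2 fold change 0.78, SE 0.07, adjusted p = 2.58e-09). DNAJB9 had 14.6, 21.9 and 16.96 CPM in K562 and 10.5, 11.8 and 10.4 CPM in parental (log2 fold change 0.74, SE 0.13, adjusted p = 3.1e-05). These were higher in every K562 library, as was SYVN1 at 48.5, 48.5 and 52.1 CPM in K562 and 30.3, 31.2 and 32.5 CPM in parental (0.70). HERPUD1 had 28.1, 26.4 and 25.3 CPM in K562 and 142, 152 and 146 CPM in parental (log2 fold change -2.43, SE 0.06, adjusted p = 5.87e-19). CRELD2 had 10.4, 13.2 and 11.5 CPM in K562 and 46.9, 47.5 and 52.9 CPM in parental (log2 fold change -2.03, SE 0.09, adjusted p = 3.32e-15). EDEM1 had 54.05, 53.1 and 54.4 CPM in K562 and 224, 231 and 209 CPM in parental (log2 fold change -2.01, SE 0.06, adjusted p = 2.85e-18). HERPUD1 was thus 5.39-fold, CRELD2 4.09-fold and EDEM1 4.02-fold lower in K562, and P4HB (-1.87) and MANF (-1.85) were close behind. WFS1 had 2 counts in all in K562 and 181 in parental, a ratio of 0.0102 (95% exact interval 0.00122 to 0.0373, counting error only).

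The remaining sensors and standard readouts moved by less than 1 on the log2 scale between the lines. ERN1 had 17.95, 19.8 and 19.4 CPM in K562 and 14.9, 16.05 and 14.4 CPM in parental (0.37, adjusted p = 0.000623). EIF2AK3 had 18.3, 18.4 and 18.4 CPM in K562 and 15.4, 19.2 and 16.7 CPM in parental (0.14, adjusted p = 0.164), with overlap. Of the kinases, only ERN1 therefore passed the test. ATF6 was higher in K562 (112, 126 and 119.6 CPM, against 105, 107 and 91.4 CPM in parental; 0.27, adjusted p = 0.000625). ATF6B, XBP1 and CREB3L2 were lower in every K562 library. ATF6B had 81.7, 84.1 and 84.6 CPM in K562 and 129, 114 and 119.7 CPM in parental (-0.50). XBP1 had 78.01, 89.4 and 86.6 CPM in K562 and 143, 152 and 152 CPM in parental (-0.78). CREB3L2 had 113, 110.2 and 120.5 CPM in K562 and 183, 202 and 163 CPM in parental (-0.64). Of the 12 chaperones, 4 were higher and 6 lower in K562. HSPA5 had 562.3, 595 and 587 CPM in K562 and 711, 679 and 722 CPM in parental (-0.24, adjusted p = 2.66e-05). HSP90B1 had 818, 909 and 856 CPM in K562 and 1036, 966 and 1025 CPM in parental (-0.20, adjusted p = 0.000448). Both were lower in K562, as was CALR (-0.54). CANX was higher in every K562 library, with 1456, 1656 and 1552 CPM in K562 and 1238, 1279 and 1080.2 CPM in parental (log2 fold change 0.41, SE 0.06, adjusted p = 1.26e-05).

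The cell line comparison shares no library with resistant 1 against vehicle, so the fold changes can be set side by side. Over 33 genes, those of resistant 1 in batch 1 correlated with those of K562 at 0.975 (Pearson) and 0.951 (Spearman), beside 0.97 (Pearson) over 13812 genes. Of 24 genes called in both comparisons, 22 had the same sign, beside 97.3% of all genes called in both. HSPA5 and HSP90B1 were the 2 exceptions, higher in resistant 1 than in vehicle and lower in K562 than in parental. The references of these comparisons differ, and vehicle was below parental for both genes. HSPA5 averaged 526 CPM in resistant 1 of batch 1, 475 CPM in vehicle, 704 CPM in parental and 581 CPM in K562. HSP90B1 averaged 984 CPM in resistant 1, 887 CPM in vehicle and 1009 CPM in parental. Resistant 1 was thus not above parental in mean level for either gene. In batch 2, the Pearson correlation with the K562 fold changes was 0.752 for resistant 1 and 0.82 for resistant 2 over the 33 genes. Over 13650 genes it was 0.942 and 0.935. By Spearman the 33 genes gave 0.799 and 0.798. The sign was the same in 16 of 21 and 17 of 19 genes called in both, beside 92.3 and 91.5% of all genes called in both. The 33 genes include WFS1, whose fold change rests on 2 counts in K562, and values without it were not computed. These correlations run across genes, which are not independent replicates, and are given with no p.

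**Figure D4:**
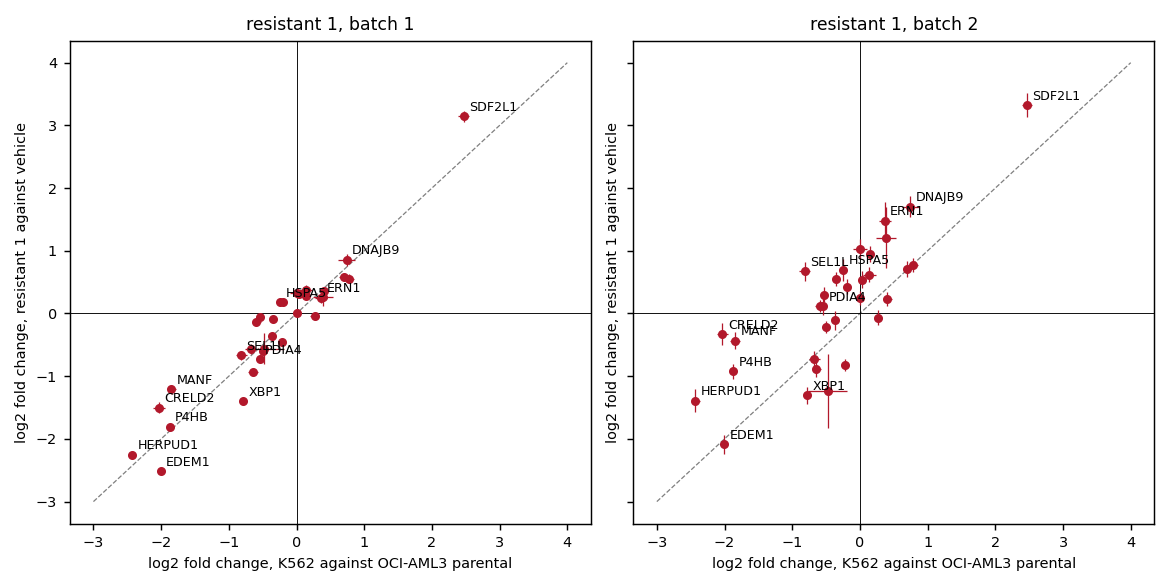
Log2 fold change of 32 genes in resistant 1 against vehicle (y axis; batch 1 left, batch 2 right), plotted over that in K562 against OCI-AML3 parental (x axis), with bars of 1 SE and the line of equality dashed. Points in batch 1 lie along the line (SDF2L1, HERPUD1, EDEM1 and P4HB at its ends), and in batch 2 most lie above it, with SEL1L and HSPA5 at the upper left.

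Resistant 1 and K562 of batch 1, compared directly, differed in 20 of 32 genes (4 higher, 16 lower), where 59.8% of 13006 genes were called (31.3% higher, 28.5% lower), and none of the 32 reached a log2 fold change of 1 in size, beside 9.6% of all genes. The median absolute change was 0.18, beside 0.25 over all genes. SIL1 had 22.2, 21.4 and 21.2 CPM in resistant 1 and 13.5, 14.1 and 13.6 CPM in K562 (log2 fold change 0.62, SE 0.08, adjusted p = 5.96e-07). HERPUD1 (0.27), ERN1 (0.21) and HSP90B1 (0.16) were the other genes higher in resistant 1. PDIA4 had 200.2, 202 and 189.7 CPM in resistant 1 and 271, 284 and 277 CPM in K562 (log2 fold change -0.52, SE 0.04, adjusted p = 6.73e-10). SEC61B had 56.96, 60.1 and 56.3 CPM in resistant 1 and 73.4, 77.3 and 74.4 CPM in K562 (-0.41). SEC61A1 had 179, 183 and 181 CPM in resistant 1 and 222, 241 and 234 CPM in K562 (-0.39). Both translocon subunits were below every K562 library. DERL2 (a derlin) followed with 14.7, 17.6 and 18.6 CPM in resistant 1 and 19.96, 19.9 and 21.7 CPM in K562 (-0.32). ERN1 had an adjusted p of 0.0216 here and lost its call under DESeq2 and without resistant 1 replicate 2 or 3 or K562 replicate 1 or 3 (adjusted p = 0.0554 to 0.0984). DERL2 lost its call without resistant 1 replicate 1 (adjusted p = 0.0519).

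Within OCI-AML3, vehicle and parental cells of batch 1 differed in 20 of 33 genes (5 higher, 15 lower), where 37% of all genes were called (18.7% higher, 18.3% lower). The median log2 fold change was -0.14, beside 0.00 over all genes. The lumenal folding machinery was lower in vehicle than in parental cells: 9 of 12 chaperones and 4 of 5 disulfide enzymes fell, and SIL1 alone of the chaperones rose. The part of DMSO, or of another difference between these cultures, was not tested. None of the 33 was called with a change of 1 on the log2 scale, beside 4.67% of all genes.

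SDF2L1 had 12.8, 13.8 and 14.5 CPM in vehicle and 20.9, 24.6 and 27.7 CPM in parental (log2 fold change -0.83, SE 0.10, adjusted p = 2.44e-07). MANF had 46.3, 52.8 and 50.5 CPM in vehicle and 82.03, 73.3 and 86.02 CPM in parental (log2 fold change -0.69, SE 0.06, adjusted p = 2.33e-09). CRELD2 had 29.2, 35.3 and 31.9 CPM in vehicle and 46.9, 47.5 and 52.9 CPM in parental (log2 fold change -0.61, SE 0.07, adjusted p = 2.92e-07). In each of these the highest vehicle library was below the lowest parental one. CALR had 757, 775 and 785 CPM in vehicle and 1189, 1128 and 1179.7 CPM in parental (log2 fold change -0.60, SE 0.04, adjusted p = 5.02e-12). HSPA5 had 473, 473 and 478 CPM in vehicle and 711, 679 and 722 CPM in parental (log2 fold change -0.57, SE 0.04, adjusted p = 2.67e-11). The lectin chaperone and BiP were thus 1.51- and 1.49-fold lower. HSP90B1 fell less, with 892, 875 and 894 CPM in vehicle and 1036, 966 and 1025 CPM in parental (log2 fold change -0.19, SE 0.04, adjusted p = 0.000798). HYOU1 (-0.39), DNAJC3 (-0.38), DNAJB11 (-0.34), PDIA3 (-0.31), PDIA4 (-0.31), PDIA6 (-0.23), P4HB (-0.14), DERL2 (-0.39) and SEC61A1 (-0.38) made up the rest of the 15, and P4HB lost its call without vehicle replicate 1 or parental replicate 3. DNAJB9 did not pass the test, at 10.9, 9.68 and 9.46 CPM in vehicle and 10.5, 11.8 and 10.4 CPM in parental (-0.12), nor did HERPUD1 (0.12).

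The 5 genes that rose included 3 of the sensors and factors. EDEM1 had 351, 329 and 336 CPM in vehicle and 224, 231 and 209 CPM in parental (log2 fold change 0.61, SE 0.05, adjusted p = 1.44e-10). XBP1 had 206, 204 and 204 CPM in vehicle and 143, 152 and 152 CPM in parental (log2 fold change 0.45, SE 0.05, adjusted p = 1.65e-08). ERN1 had 19.9, 19.9 and 18.2 CPM in vehicle and 14.9, 16.05 and 14.4 CPM in parental (log2 fold change 0.35, SE 0.08, adjusted p = 0.00159). These 3 and SIL1 (0.32) and ATF6 (0.21) were above parental in 3 of 3 libraries. EIF2AK3 (-0.13), ATF6B (0.14) and CREB3L2 (0.14) were not called. Sums of marker genes also differed between these groups. The erythroid list summed to 192 to 197 CPM in vehicle and 305 to 343 CPM in parental. Of its genes, 5 of 23 tested were called (4 higher, 1 lower), a share of 21.7% beside 37% of all genes. Only 5 of its 24 genes averaged at least 1 CPM in each group, so these sums rest on few genes. The monocyte and myeloid list summed to 3439 to 3502 CPM in vehicle and 3575 to 3644 CPM in parental. Of that list, 12 of 20 were called (9 higher, 3 lower), or 60%. Neither list's sums overlapped, and their part in the result was not tested.

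**Figure D5:**
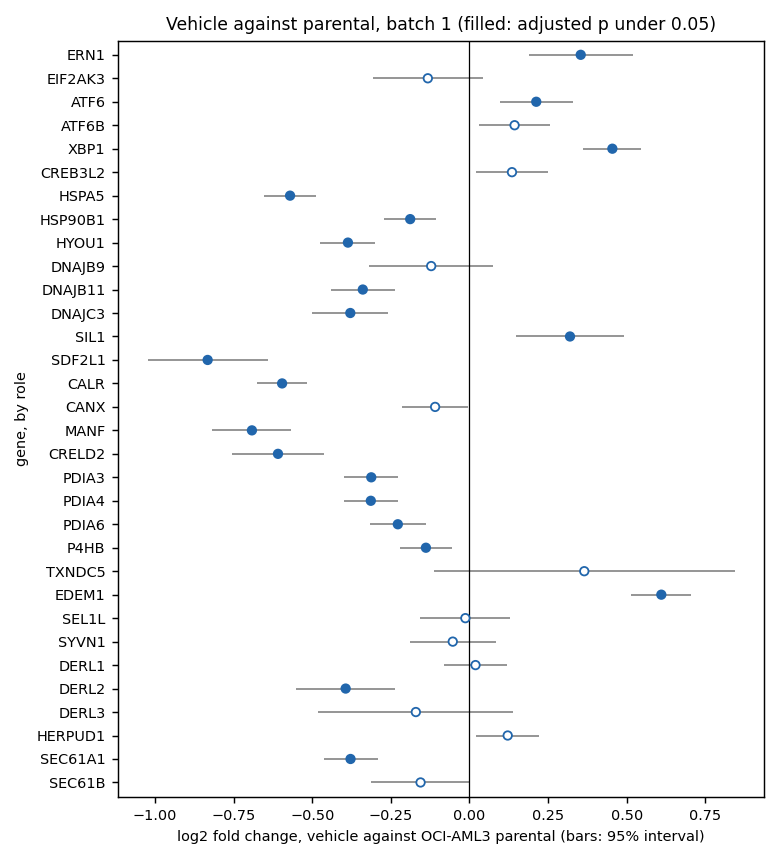
Log2 fold change of 32 genes in vehicle against parental OCI-AML3 cells of batch 1, with bars of the 95% interval (normal approximation); filled points passed the test. SDF2L1, MANF, CRELD2, CALR and HSPA5 lie lowest, and EDEM1, XBP1, ERN1, SIL1 and ATF6 are the filled points right of 0.

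The PERK arm, in which ATF4 and DDIT3 (CHOP) drive stress and amino acid genes, was read from a list of 17 other genes. In vehicle against parental cells, 12 of 17 were higher and 1 lower (76.5% called, beside 37% of all genes), with a median log2 fold change of 0.83 beside 0.00 over all genes. CHAC1 (a glutathione-degrading ATF4 target) averaged 31.96 ± 1.27 CPM in vehicle and 1.94 ± 0.283 CPM in parental (SD, n = 3 each), a log2 fold change of 4.04 (adjusted p = 1.04e-19). DDIT4, an inhibitor of mTORC1, had a log2 fold change of 3.68 and ATF4 of 0.83. PPP1R15A (GADD34, which restores translation) was the one lower (-0.37).

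In resistant 1 against vehicle of batch 1, 5 of the 17 genes were higher and 10 lower, a share called (88.2%) near that of all genes (86%). ATF4 fell (-1.07), averaging 276 ± 5.85 CPM in resistant 1 and 592 ± 15.02 CPM in vehicle (SD, n = 3 each), as did CHAC1 (-2.91), whereas ATF3 (2.09), PPP1R15A (1.86) and DDIT3 (0.95) rose. ATF5 (1.08) rose too, and the greatest fall of the list was that of VLDLR (-7.94). In batch 2, 7 were higher and 6 lower in resistant 1, and 8 were higher and 3 lower in resistant 2 (76.5% and 64.7% called, beside 75.7% and 76.1% of all genes). ATF4 was lower in both, by log2 fold changes of -0.60 in resistant 2 and -0.67 in resistant 1. CHAC1 was lower in resistant 1 (-1.18, adjusted p = 0.00726) and not called in resistant 2 (0.23, adjusted p = 0.53). ATF3, a stress-induced factor, averaged 101 ± 49.01 CPM in resistant 2, 35.1 ± 5.38 CPM in resistant 1 and 4.91 ± 1.29 CPM in vehicle of batch 2 (SD, n = 3 each). DDIT3 averaged 54.6 ± 21.3 CPM in resistant 2, 54.7 ± 23.8 CPM in resistant 1 and 13.9 ± 7.07 CPM in vehicle. Both exceeded vehicle in log2 fold change by 4.29 and 1.92 in resistant 2 and by 2.78 and 1.94 in resistant 1.

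Other secretory pathway lists moved in both directions in the comparisons with vehicle. The shares called below read against 86% of all genes in resistant 1 of batch 1, 75.7% in resistant 1 of batch 2 and 76.1% in resistant 2. Of 24 further ER chaperones tested, 7 were higher and 16 lower in resistant 1 of batch 1, 6 and 11 in batch 2, and 5 and 9 in resistant 2 (95.8%, 70.8% and 58.3% called). FKBP11, a prolyl isomerase of secretory cells, fell in all 3 (log2 fold change -2.5, -3.23 and -3.87). Of 26 further degradation genes, 13 were higher and 7 lower in resistant 1 of batch 1, 12 and 7 in batch 2, and 8 and 6 in resistant 2 (76.9%, 73.1% and 53.8% called). RNF5, an ER ubiquitin ligase, rose in all 3 (1.81, 1.90 and 1.65) and EDEM3, a mannosidase related to EDEM1, fell in all 3 (-1.65, -1.68 and -1.89). Of 15 other ER oxidoreductases, 5 were higher and 6 lower in resistant 1 in each batch, and 5 higher and 8 lower in resistant 2 (73.3%, 73.3% and 86.7% called), with QSOX1, a sulfhydryl oxidase, lower in resistant 1 of both batches (-2.61 and -2.11).

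Of 26 genes of the translocon, signal peptidase and oligosaccharyltransferase, 8 were higher and 12 lower in resistant 1 of batch 1, 12 and 9 in batch 2, and 5 and 10 in resistant 2 (76.9%, 80.8% and 57.7% called). SSR3, a subunit of the translocon-associated complex, rose in all 3 (1.60, 1.19 and 1.14). Of 26 genes of transport to the Golgi, 13 were higher and 8 lower, 12 and 6, and 10 and 7 in those comparisons (80.8%, 69.2% and 65.4% called). KDELR3, a receptor that retrieves escaped ER chaperones, rose in all 3 (2.32, 2.57 and 2.84), and SEC23B, a coat subunit of the vesicles leaving the ER, fell in all 3 (-1.99, -2.34 and -2.42). The partners and relatives of the sensors gave 3 higher and 7 lower of 13, 4 and 6 of 14, and 4 and 5 of 14 (76.9%, 71.4% and 64.3% called). CREB3L1, a relative of CREB3L2, averaged 34.2 ± 1.49 CPM in resistant 1 and 0.212 ± 0.0508 CPM in vehicle of batch 1 (SD, n = 3 each). The batch 2 comparisons share their vehicle libraries, so the counts of resistant 1 and resistant 2 there are not independent.

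Cytosolic heat shock genes, a comparison list outside the ER, gave 8 higher and 3 lower of 14 in resistant 1 of batch 1, 4 and 6 in batch 2, and 5 and 6 in resistant 2. Called shares were 78.6%, 71.4% and 78.6%, near those of all genes (86%, 75.7% and 76.1%). HSPA1B, an inducible HSP70, rose in all 3 (3.12, 2.88 and 2.54), though it is near identical to HSPA1A and reads may have been split between them. In vehicle against parental cells, 11 of 14 were lower and 0 higher (18.3% and 18.7% of all genes), with HSPA8, the constitutive HSP70, at -0.78. Like the lumenal chaperones, the cytosolic ones were thus lower in vehicle than in parental cells.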

How the data were processed

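The 21 libraries were grouped by their labels. The authors deposited raw gene counts, one table per sequencing batch, keyed by gene symbol and without normalization. The submitters' processing notes name hg38, the VIPER pipeline and DESeq2 1.22.1. Annotation, aligner version and counting strand are unknown here. Libraries were strand-specific, per the labels' protocols. All 28008 rows named a gene, and 0 columns were left without a sample.

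From the counts, edgeR 4.0.16 in R 4.3.3 was run on whole tables (TMM, filterByExpr, robust quasi-likelihood F tests, two-sided, Benjamini-Hochberg over all genes tested, called at adjusted p under 0.05). One fit held the OCI-AML3 libraries of batch 1 and another those of batch 2, and further fits held the 6 libraries of each comparison with K562, and the 12 libraries of the batch difference. The fits were tested on simulated counts with the same spread in every group. Replicates of batch 2 spread more than those of batch 1. That test therefore does not show the error rate in batch 2 or for the batch difference. Depth, 14066821 to 51262668 counts per library, limits precision mainly for the 4 lowest genes. Alternatives were RLE scaling, DESeq2 1.42.0, no low-count filter, fits of the compared groups alone, the replicate number as a block, and leaving out each library. No pair of replicate libraries agreed within sampling noise. Same-numbered libraries deviated together in resistant 1 and vehicle (correlations 0.211, 0.265 and 0.219) and in resistant 2 and resistant 1 of batch 2 (0.293, 0.39 and 0.159), a pairing read from the data and not from the labels.

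The 34 genes and the other lists were chosen with earlier results of these data known. Every member is named at least once, though not every call in every comparison. Values in every library are given for the sensors and factors, HSPA5, HSP90B1, HERPUD1, DNAJB9 and, per comparison, the called members that rose most (up to 4) and fell most (up to 4), unless another paragraph already gives them. Up to 2 called genes per direction of each other list were open to naming. Of the PERK arm list more genes were named, and they were not always those that changed most. Coordinates and transcript lengths came from GENCODE v44 (hg38), matched by symbol.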

Additional observations from a re-analysis of the deposited data

Results flagged for a closer look

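In 17 genes the change of resistant 1 against vehicle differed between the batches by a test of the difference itself (edgeR quasi-likelihood F test, adjusted p under 0.05, called in 33.2% of all genes). The values are the log2 fold change in batch 2 minus that in batch 1. The test shared 1 estimate of the spread over both batches, though batch 2 replicates spread more, so its adjusted p-values may be too small. Of the sensors, ERN1 differed by 1.21 and ATF6B by 0.37. Among chaperones the difference was 1.16 for CRELD2, 0.83 for DNAJB9, 0.75 for MANF, 0.69 for SIL1, 0.65 for HYOU1, 0.50 for HSPA5 and 0.34 for CALR. Of the disulfide enzymes, P4HB differed by 0.86, PDIA4 by 0.82 and PDIA3 by 0.62. In the degradation group, SEL1L differed by 1.32, HERPUD1 by 0.84, EDEM1 by 0.41 and DERL1 by -0.38. WFS1 differed by 4.15, on 3 counts in all in resistant 1 of batch 1, so that its fitted value depends on the prior count and is no measure of size. The erythroid marker sum was 3290 to 3765 CPM in resistant 1 of batch 2 and 7003 to 7169 CPM in resistant 1 of batch 1, with 3 of 24 genes called for the batch difference (2 greater, 1 smaller in batch 2). The monocyte and myeloid marker sum was 295 to 369 CPM in resistant 1 of batch 2 and 154 to 155 CPM in resistant 1 of batch 1, with 11 of 20 called (9 greater, 2 smaller; median difference 0.94). The part of either list in these differences was not tested.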

How the results depend on the processing

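Over all comparisons and alternatives, 3125 values of single genes were recomputed, and none reversed its direction where called: 2963 stayed on the same side of the threshold, 70 lost their call and 92 gained one. Leaving out each library in turn, the number of genes called ran from 26 to 29 (28 with all libraries) in resistant 1 against vehicle of batch 1, 22 to 26 (24) in batch 2, 21 to 23 (22) in resistant 2 against vehicle, 19 to 22 (20) in vehicle against parental, 27 to 29 (28) in K562 against parental, 16 to 21 (20) in resistant 1 against K562 and 14 to 19 (17) for the batch difference. Resistant 2 against resistant 1 was the comparison whose count moved by over 1.5 times: from 2 genes to 4 under DESeq2, to 6 with the replicate block, to between 2 and 5 with each library left out, and to 11 without replicate 2 in every group of batch 2, an alternative chosen after seeing the data. Over all genes the number called moved as well, from 3706 to 4228 under DESeq2 and 4543 with the block. It ran from 2323 to 4814 with each library left out, and was 5630 without replicate 2 in every group. The cause was not tested. Without replicate 2 in every group of batch 2, 27 genes were called in resistant 1 against vehicle, 25 in resistant 2 against vehicle and 25 for the batch difference. Over all genes 11728, 11841 and 6122 were called. With the replicate block, 26 genes were called in each of the batch 2 comparisons with vehicle. Over all genes 11858 were then called for resistant 1 and 11939 for resistant 2. Depth limited TXNDC5, EDEM2, WFS1 and DERL3, which lie near or under 1 CPM in some groups. DERL3 also lost its call in K562 against parental under DESeq2 (adjusted p = 0.0862), and without K562 replicate 1 or 2 or parental replicate 1 (0.0599 to 0.0736).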

Other observations

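Log2 levels of the 34 genes correlated at 0.915 to 0.923 between resistant 1 and vehicle libraries of batch 1, where 10772 genes correlated at 0.511 to 0.514. Between resistant 1 and K562 of batch 1 the 34 genes correlated at 0.996 to 0.997. These are descriptions across genes whose levels differ widely, and they share library and scaling.

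The ATF4 targets TRIB3 (a pseudokinase) and SESN2 (sestrin 2) were chosen after their values were seen, and had their highest means of the 7 groups in resistant 2. They do not stand for their list, in which ATF4 itself was lower than vehicle in both resistant groups of batch 2 and its target CHAC1 was lower in resistant 1. TRIB3 averaged 277 ± 94.3 CPM in resistant 2, 174 ± 23.98 CPM in resistant 1 and 79.5 ± 29.5 CPM in vehicle of batch 2 (SD, n = 3 each). SESN2 averaged 137 ± 51.1 CPM in resistant 2, 84.2 ± 3.34 CPM in resistant 1 and 61.7 ± 19.2 CPM in vehicle. TRIB3 was called higher than vehicle in both (log2 fold change 1.74, adjusted p = 0.000243, in resistant 2 and 1.08, adjusted p = 0.00546, in resistant 1), and SESN2 in resistant 2 (log2 fold change 1.09, adjusted p = 0.00258) but not in resistant 1 (0.41, adjusted p = 0.177). Their difference between resistant 2 and resistant 1 did not pass the test (0.66, adjusted p = 0.121, and 0.68, adjusted p = 0.0789). Other genes of the list did: of 17, 4 were higher and 1 lower in resistant 2 (29.4% called, beside 24.4% of all genes). ATF3 (1.51), CHAC1 (1.42), VLDLR (0.84) and CEBPG (0.62) were higher and ATF5 (-0.79) was lower. Against vehicle of batch 2, VLDLR was lower in both (-3.25 in resistant 2 and -4.09 in resistant 1).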
